A study of Mus musculus with 96 samples.

Results

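The data described here were gene counts of mouse liver RNA taken from paraffin blocks fixed in formalin for 3 months and incubated with an organocatalyst, set against RNA from the flash-frozen liver of the same animals. The members were the 12 count columns of the catalyst AllPrep state and the 12 columns of the frozen state, 24 of the 96 libraries in the series, paired by the animal code in their labels. Each library came from a separate animal within a state. Each state held 6 animals given phenobarbital (PB) at 600 ppm in drinking water for 7 days and 6 control animals (Con) at 0 ppm. All 12 animals were male B6C3F1 mice aged 10 to 11 weeks, and every library came from mixed pieces of the left lateral, caudate and right medial liver lobes. Per the labels' protocols the tissue was flash frozen first in both states, so the fixed pieces were cut from frozen liver. Catalyst AllPrep pieces were then held in 10% buffered formalin for 3 months at 4 °C, embedded in paraffin, kept as blocks at room temperature, and incubated for 18 hours at 55 °C with the organocatalyst during isolation with the Qiagen AllPrep kit. Frozen pieces stayed at -80 °C and gave RNA by RNAzolRT and RNeasy MinElute columns. Fixation, embedding, the heated catalyst incubation and the isolation chemistry therefore all separate the states and cannot be told apart. The labels used here give no sequencing run, so a run shared by a state cannot be told apart from the state either.

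Formaldehyde adds hydroxymethyl groups to the exocyclic amines of RNA bases and links RNA to protein through methylene bridges, which stalls reverse transcriptase, and long fixation also goes with shorter RNA. Organocatalysts of this kind speed the removal of such adducts in water at moderate heat. Liver is made mostly of hepatocytes, which secrete the plasma proteins and carry many mitochondria, with sinusoidal endothelial cells, Kupffer macrophages and stellate cells beside them. Phenobarbital activates the nuclear receptor CAR in hepatocytes and induces drug-metabolising enzymes, with Cyp2b10 as its classical target. Libraries were made with a stranded kit from total RNA after ribosomal depletion, so they also held noncoding and mitochondrial RNA.

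Short RNAs stood at both ends of the comparison among genes that are not protein-coding, and the sequences of 9 of them are shown for the kinds of RNA they represent. Box C/D snoRNAs guide methylation or processing of ribosomal RNA, and in the first 2 sequences the capitals mark the C box ATGATGA and the D box CTGA. Box H/ACA snoRNAs guide pseudouridylation, and capitals mark the ACA box that stands 3 bases from the end. In the mitochondrial transfer RNAs for methionine (mt-Tm) and tryptophan (mt-Tw) the capitals mark the anticodon, and in the miRNAs the seed (bases 2 to 8). The sequences of snoRNAs and transfer RNAs are GENCODE M21 transcripts on GRCm38, 5′ to 3′, and those of the mature miRNAs are from RefSeq on GRCm38.p6. The 5 snoRNAs were lower in catalyst AllPrep than in frozen liver, and the transfer RNAs were higher. Counts over the 2 miRNA loci were higher too, which is no measurement of the mature miRNAs.
Snord17, chr2:144265979-144266216, minus strand: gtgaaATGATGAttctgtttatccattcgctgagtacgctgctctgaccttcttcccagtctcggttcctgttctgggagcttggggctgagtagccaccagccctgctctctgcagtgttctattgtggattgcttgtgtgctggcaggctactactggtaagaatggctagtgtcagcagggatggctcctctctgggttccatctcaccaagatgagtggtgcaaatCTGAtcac
Snord118, chr11:69073427-69073561, plus strand: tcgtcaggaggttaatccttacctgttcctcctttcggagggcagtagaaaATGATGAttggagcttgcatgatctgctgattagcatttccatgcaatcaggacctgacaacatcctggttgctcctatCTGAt
Snora23, chr7:110046364-110046547, plus strand: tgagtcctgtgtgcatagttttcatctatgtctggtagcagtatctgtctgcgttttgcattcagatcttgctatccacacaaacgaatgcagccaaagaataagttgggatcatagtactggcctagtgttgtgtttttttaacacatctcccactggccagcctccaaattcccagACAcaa
Snora78, chr17:24719676-24719803, minus strand: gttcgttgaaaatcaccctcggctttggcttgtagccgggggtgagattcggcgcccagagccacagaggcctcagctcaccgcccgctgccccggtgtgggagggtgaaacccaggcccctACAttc
Snora57, chr19:8888538-8888685, minus strand: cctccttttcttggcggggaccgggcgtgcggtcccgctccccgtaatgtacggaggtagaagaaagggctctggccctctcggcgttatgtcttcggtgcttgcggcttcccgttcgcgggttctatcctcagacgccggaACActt
mt-Tm, chrM:3845-3913, plus strand: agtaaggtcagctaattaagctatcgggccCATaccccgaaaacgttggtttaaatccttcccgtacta
mt-Tw, chrM:4950-5016, plus strand: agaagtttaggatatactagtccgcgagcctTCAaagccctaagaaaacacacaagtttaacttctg
mmu-miR-6236, chr9:110281353-110281371, plus strand: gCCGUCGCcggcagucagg
mmu-miR-6240, chr5:114851973-114851998, plus strand: cCAAAGCAucgcgaaggcccacggcg
The boxes were searched on the transcribed strand only, ATGATGA before the midpoint of the RNA with CTGA in its last 20 bases, or ACA 3 bases from the end. Of 1507 annotated mouse snoRNA genes, 259 (17.2%) held the first pair and 276 (18.3%) held ACA in that place, against 3 (5.77%) and 36 (69.2%) of the 52 snoRNA genes tested here.

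The library totals and the makeup of the libraries differed between the states in every animal. Catalyst AllPrep libraries held 10756632 to 13971411 counts and frozen libraries 14527636 to 18442730, without overlap. Mitochondrially encoded genes took 4.84% ± 0.71 of the counts in catalyst AllPrep libraries and 2.57% ± 0.41 in frozen libraries (SD, n = 12 each), and the ranges, 3.92% to 5.96% and 2.04% to 3.30%, did not meet. Secreted plasma protein genes took 18.2% ± 2.1 in catalyst AllPrep libraries and 25.1% ± 2.4 in frozen libraries, lower in 12 of 12 animals and again without overlap. The mean differences were alike in PB and Con animals, at 2.30 and 2.25 percentage points for mitochondrial genes and -6.86 and -6.997 for plasma protein genes. TEC loci, the GENCODE class of loci still awaiting experimental proof of a transcript, took 0.348% ± 0.061 in catalyst AllPrep libraries and 0.199% ± 0.019 in frozen libraries. MiRNA loci took 0.0968% ± 0.0145 and 0.0352% ± 0.0122 of the counts in catalyst AllPrep and frozen libraries. Frozen PB 20D stood high and catalyst AllPrep PB 75C low both for this share and for Gm23935. All of that locus's sequence occurs in other genes. How far single loci carry the miRNA share was not tested. Sense intronic RNAs, at 0.0579% and 0.0332%, and antisense RNAs, at 0.157% and 0.11%, were also higher in catalyst AllPrep in 12 of 12 animals. Each of these differences had an adjusted p of 0.000759 in an exact two-sided paired permutation test over 12 animals, adjusted over 14 library measures, and 0.000488 is the smallest unadjusted p this test can give. At equal depth, 15346.5 ± 334.9 genes were detected with at least 5 counts in catalyst AllPrep libraries and 14789.3 ± 75.2 in frozen libraries, higher in 11 of 12 animals (adjusted p = 0.00137, exact test). The share of snoRNA and scaRNA genes, 0.108% in catalyst AllPrep and 0.114% in frozen libraries, did not pass (adjusted p = 0.397), nor did that of snRNA genes, 0.0333% and 0.0314% (adjusted p = 0.346).

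**Figure D1:**
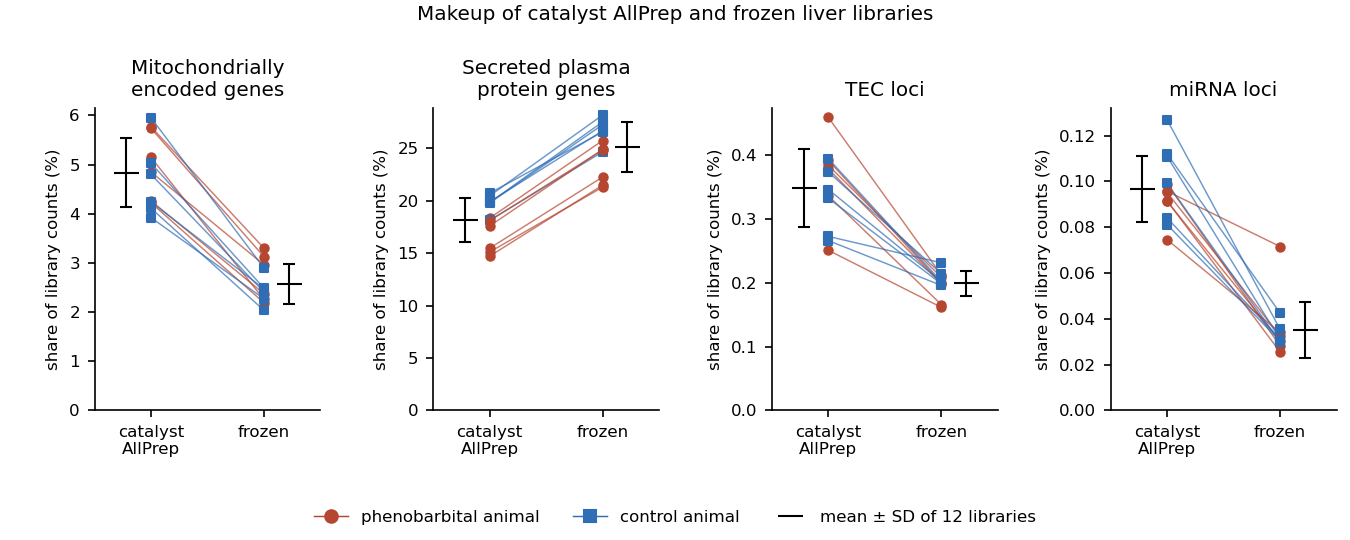
Share of library counts (%) taken by mitochondrially encoded genes, secreted plasma protein genes, TEC loci and miRNA loci in catalyst AllPrep and frozen libraries. Points are libraries, lines join the 12 animals, and bars are the mean ± SD of 12 libraries; in each panel every line runs the same way, for example 4.84% against 2.57% on average for mitochondrially encoded genes.

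Each gene was then compared within animals, after scaling by TMM (a factor per library that sets aside genes of extreme change) and a test of edgeR's quasi-likelihood model adjusted over all genes. A gene is said to have risen or fallen where the adjusted p was under 0.05, and a log2 fold change is catalyst AllPrep over frozen. Of 13997 genes tested, 4840 (34.6%) rose and 4009 (28.6%) fell in catalyst AllPrep, but 7215 of the 8849 (81.5%) did so by less than 1.5-fold. Only 87 genes (0.622%) rose and 61 (0.436%) fell by 2-fold or more, 148 in all (1.06%). The median absolute log2 fold change was 0.23, next to a median SD of 0.21 between the differences of the 12 animals. The libraries of the states did not overlap for 295 genes that were higher (2.11%) and 616 that were lower (4.4%) in catalyst AllPrep. The split into rises and falls rested on the scaling: with library totals alone, 8220 genes rose and 1964 fell, since the median log2 fold change moved by 0.21. Counts of list members are therefore given below under TMM and, where this scaling turns the direction of a list or most of its calls, under library totals too.

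The 13 mitochondrially encoded proteins are core subunits of the respiratory chain and ATP synthase, and 7 of their genes passed the filter on low counts. The other 6, among them mt-Co2, mt-Co3 and mt-Atp6, were listed with 14 counts or fewer over all 24 libraries, with mt-Nd3 and mt-Atp8 at 0, although every liver cell uses them, so their levels cannot be read from this table. All 7 rose in catalyst AllPrep, where 34.6% of all genes rose, with a median log2 fold change of 0.78 against 0.04 over all genes. For 5 of them the states did not overlap, against 2.11% of all genes in that direction. mt-Nd5, a complex I subunit, had a lowest, median and highest level of 3778.0, 4406.4 and 5729.7 CPM (counts per 1e6 library counts, TMM-scaled) in catalyst AllPrep livers, against 1920.7, 2395.6 and 2735.1 CPM in frozen livers. Every catalyst AllPrep library thus lay above every frozen one, with a log2 fold change of 0.97 (SE 0.0457, adjusted p = 4.74e-15). mt-Nd2 averaged 3354.9 ± 431.7 CPM in catalyst AllPrep livers and 1796.8 ± 167.1 CPM in frozen livers (log2 fold change 0.90, SE 0.0426, adjusted p = 5.85e-15). mt-Nd1 averaged 5019.3 ± 689.4 and 2936.6 ± 465.6 CPM in catalyst AllPrep and frozen livers, a log2 fold change of 0.78. mt-Co1, the catalytic subunit of cytochrome c oxidase, was 16822.5, 21383.8 and 28729.3 CPM in catalyst AllPrep and 11599.4, 13568.7 and 19145.8 CPM in frozen livers. It rose in 12 of 12 animals by 0.59 on the log2 scale, though the highest frozen libraries passed the lowest catalyst ones.

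Mitochondrial transfer RNAs rose with the protein genes. All 7 that were tested rose, against 34.6% of all genes, with a median log2 fold change of 0.94. For 3 of them the states did not overlap, against 2.11% of all genes in that direction. mt-Tm, printed above, had 8.58, 9.83 and 10.8 CPM as its lowest, median and highest level in catalyst AllPrep livers, against 3.03, 4.88 and 7.30 CPM in frozen livers. Its log2 fold change was 0.96 (SE 0.0779, adjusted p = 9.68e-11), with the groups apart. mt-Tw averaged 10.7 ± 1.8 CPM in catalyst AllPrep livers and 5.56 ± 1.13 CPM in frozen livers, a log2 fold change of 0.94. mt-Ti, the isoleucine transfer RNA, was 11.0 to 27.6 CPM in catalyst AllPrep and 9.13 to 23.1 CPM in frozen livers, and its rise of 0.47 turned to -0.17 with an offset for GC content. Gm13340, a nuclear copy of mt-Co1 on chromosome 2 that was singled out after its values were seen, showed a larger difference than any mitochondrial gene named here. It had 19.97, 24.97 and 36.23 CPM in catalyst AllPrep livers and 1.51, 2.09 and 3.62 CPM in frozen livers (log2 fold change 3.57), and 50.4% of its 31-base words also occur in other genes, mt-Co1 first among them. Reads of the copy and of mitochondrial mt-Co1 may therefore not be told apart.

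Nuclear genes for mitochondrial proteins moved the other way. Of 75 nuclear-encoded respiratory chain subunits, 71 fell, 3 rose and 1 did not pass, where 28.6% of all genes fell. Their median log2 fold change was -0.51, and 30 of the falls came without overlap against 4.4% of all genes. Ndufv1, the flavoprotein of complex I, had 53.3, 70.8 and 79.4 CPM in catalyst AllPrep livers and 113.4, 137.2 and 156.0 CPM in frozen livers (log2 fold change -0.96, SE 0.0364, adjusted p = 1.41e-16). Its highest catalyst library lay below its lowest frozen one. Ndufs8, an iron-sulphur subunit of complex I, averaged 29.0 ± 2.2 CPM in catalyst AllPrep and 52.7 ± 2.5 CPM in frozen livers. Uqcrc1, a core protein of complex III, averaged 109.7 ± 14.5 and 197.4 ± 23.8 CPM in catalyst AllPrep and frozen livers, and neither gene overlapped. Of 77 mitochondrial ribosomal protein genes, 61 fell and 3 rose (median -0.34). Mrps28, of the small mitochondrial subunit, averaged 9.26 ± 1.15 CPM in catalyst AllPrep and 15.9 ± 1.7 CPM in frozen livers. With library totals alone, 64 respiratory chain genes and 38 mitochondrial ribosomal protein genes still fell.

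**Figure D2:**
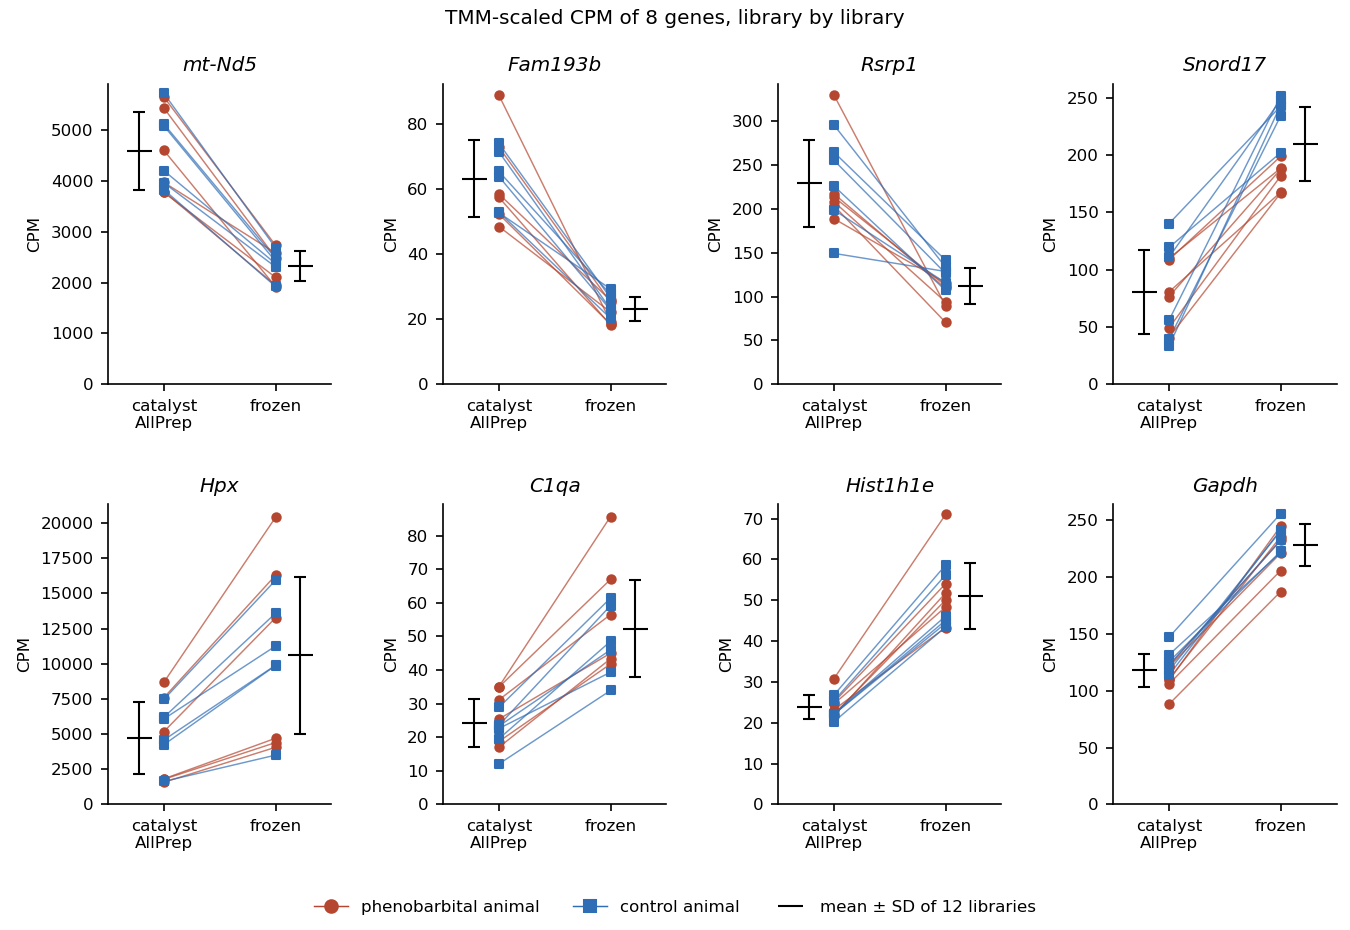
TMM-scaled CPM of 8 genes in each library, catalyst AllPrep beside frozen, each panel starting at 0. Lines join the 12 animals (circles PB, squares Con) and bars are the mean ± SD of 12 libraries; mt-Nd5, Fam193b and Rsrp1 were higher in catalyst AllPrep in 12 of 12 animals, and Snord17, Hpx, C1qa, Hist1h1e and Gapdh lower in 12 of 12.

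Among protein-coding genes, only 23 rose by 2-fold or more in catalyst AllPrep and 47 fell. Fam193b (chr13:55539316-55571120) had 48.4, 61.1 and 88.8 CPM as its lowest, median and highest level in catalyst AllPrep livers, against 18.1, 22.9 and 29.2 CPM in frozen livers. The groups did not overlap, and the log2 fold change was 1.44 (SE 0.073, adjusted p = 1.67e-14). Adrb3, the beta-3 adrenergic receptor best known from fat cells, had 22.6, 30.8 and 45.5 CPM in catalyst AllPrep and 9.56, 12.4 and 15.2 CPM in frozen livers (log2 fold change 1.32, SE 0.0782). The groups were again apart, though 17.6% of the 31-base words of Adrb3 also occur in other genes, Gm45470 first among them. Grik5, a kainate receptor subunit, averaged 12.2 ± 2.1 and 4.93 ± 0.99 CPM in catalyst AllPrep and frozen livers (log2 fold change 1.303). Chrna4, a nicotinic receptor subunit, varied widely among animals, at 5.52 to 65.3 CPM in catalyst AllPrep and 3.34 to 18.4 CPM in frozen livers, yet was higher in 12 of 12 animals (log2 fold change 1.21). Mbd6, of the methyl-CpG-binding domain family, averaged 26.9 ± 4.1 CPM in catalyst AllPrep livers and 13.4 ± 2.8 CPM in frozen livers without overlap (log2 fold change 1.01). Snhg11, a snoRNA host gene that GENCODE M21 lists as protein-coding, averaged 14.5 ± 7.5 and 6.62 ± 2.73 CPM in catalyst AllPrep and frozen livers (log2 fold change 1.10).

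SR proteins and their relatives bind exons and steer splicing. Of 26 such genes 24 rose and none fell (median log2 fold change 0.37), where 34.6% of all genes rose and 28.6% fell. Rsrp1, an arginine- and serine-rich protein, had 149.3, 215.4 and 330.2 CPM in catalyst AllPrep livers and 70.4, 113.9 and 141.4 CPM in frozen livers (log2 fold change 1.03, SE 0.0853, adjusted p = 1.57e-10). Its lowest catalyst library stood just above its highest frozen one. Luc7l2, a U1 snRNP-associated splicing factor, averaged 500.7 ± 78.2 CPM in catalyst AllPrep and 298.7 ± 26.5 CPM in frozen livers. Srsf11 averaged 130.0 ± 14.6 and 78.9 ± 5.4 CPM in catalyst AllPrep and frozen livers, also without overlap. Of 15 long RNAs that host snoRNAs in their introns, 14 rose (median 0.52). Snhg1 averaged 7.11 ± 1.49 CPM in catalyst AllPrep and 4.29 ± 0.99 CPM in frozen livers, and Zfas1 6.55 ± 1.08 and 4.53 ± 0.65 CPM. 1810026B05Rik averaged 38.4 ± 6.3 CPM in catalyst AllPrep and 22.7 ± 2.5 CPM in frozen livers, but 45.5% of its 31-base words are shared with its neighbour Chd2. Of 120 KRAB zinc finger genes, a family of transcriptional repressors with low mRNA levels, 61 rose and 5 fell (median 0.17), again beside 34.6% and 28.6% of all genes. Zfp329 averaged 23.0 ± 2.9 CPM in catalyst AllPrep and 14.8 ± 2.3 CPM in frozen livers.

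Of 11 long noncoding RNAs that stay in the nucleus, 5 rose and none fell, against 34.6% and 28.6% of all genes, and 9 rose with library totals alone. Their median log2 fold change was 0.41 in PB animals and -0.01 in Con animals. Firre, an X-linked RNA that helps organise chromosomes in the nucleus, had 45.5, 60.1 and 85.2 CPM in catalyst AllPrep livers and 22.6, 32.4 and 39.1 CPM in frozen livers (log2 fold change 0.92, SE 0.0636). Gt(ROSA)26Sor, the noncoding transcript of the Rosa26 locus, averaged 8.0 ± 1.66 CPM in catalyst AllPrep and 4.04 ± 0.64 CPM in frozen livers (log2 fold change 0.97). Neither overlapped between the states. Malat1, the abundant RNA of nuclear speckles, had 7638.8, 10375.9 and 13658.8 CPM in catalyst AllPrep livers and 7877.8, 9939.8 and 10793.6 CPM in frozen livers, and did not pass (log2 fold change 0.12, adjusted p = 0.102). Neat1, the scaffold of paraspeckles, averaged 2204.2 ± 971.9 and 1923.7 ± 923.5 CPM in catalyst AllPrep and frozen livers and did not pass either (adjusted p = 0.168). For both, 8 of 12 animals were higher in catalyst AllPrep, and both passed with library totals alone (log2 fold changes 0.32 and 0.45), without animal 21C (0.15 and 0.37) and without animal 8D (0.15 and 0.34). In PB animals alone the log2 fold changes were 0.22 for Malat1 and 0.56 for Neat1, and in Con animals -0.03 and -0.12; the difference between treatments did not pass for either gene (adjusted p = 0.380 and 0.384 for the interaction in edgeR).

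By gene class, most rises were of protein-coding genes, but the share that rose was larger in poorly characterised loci. Of 12160 protein-coding genes, 3711 rose (30.5%) and 3885 fell (31.9%). Of 604 TEC loci, 487 rose and 2 fell (median log2 fold change 0.57), and of 109 sense intronic RNAs, 91 rose and 1 fell (0.64), against 34.6% rising among all genes. Of 207 lincRNA genes 121 rose and 4 fell, and of 206 antisense genes 109 rose and 9 fell. Whether the counting used the strand is not stated in the labels, so reads of an antisense gene and of its partner may be mixed. Of 18 miRNA loci tested, 16 rose and none fell (median 0.87). Mir6236 (chr9:110281287-110281409) had 87.6, 134.7 and 210.1 CPM in catalyst AllPrep livers and 11.9, 23.4 and 57.8 CPM in frozen livers (log2 fold change 2.26, SE 0.151, adjusted p = 2.71e-12). The groups did not meet. Mir6240 averaged 14.7 ± 3.2 CPM in catalyst AllPrep and 7.68 ± 2.81 CPM in frozen livers (log2 fold change 0.96). A total RNA library counts any fragment over such a locus, so these are not measurements of the mature miRNAs printed above.

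Among loci that collect reads of ribosomal RNA, 4 of 5 tested rose by 2-fold or more, against 0.622% of all genes. Gm42418, singled out after its values were seen, averaged 994.2 ± 417.7 CPM in catalyst AllPrep livers and 397.0 ± 99.5 CPM in frozen livers, with 96.3% of its 31-base words shared with other genes. Lars2, the mitochondrial leucyl-tRNA synthetase, had 44.1, 59.9 and 105.0 CPM in catalyst AllPrep and 21.6, 27.2 and 48.8 CPM in frozen livers, and rose in 12 of 12 animals (log2 fold change 1.13, SE 0.105). Gm37376 averaged 30.1 ± 22.4 CPM in catalyst AllPrep and 14.7 ± 11.9 CPM in frozen livers, a rise that did not pass without the animal in the model (log2 fold change 1.03, adjusted p = 0.0902 in edgeR). Every 31-base word of it is found in other genes, with Malat1 holding all of them, so its reads cannot be assigned to ribosomal RNA from this table. Gm26917 varied widely within a state, at 1418.6, 8628.0 and 14956.0 CPM in catalyst AllPrep and 5424.6, 7574.3 and 10533.6 CPM in frozen livers, and did not pass (log2 fold change -0.05, adjusted p = 0.853). Together such loci took 1.04% ± 0.54 of the counts in catalyst AllPrep and 0.741% ± 0.150 in frozen libraries (adjusted p = 0.0769, exact test). More genes chosen after their values were seen stood far apart: Gm24514 averaged 14.5 ± 2.2 CPM in catalyst AllPrep and 2.83 ± 0.52 CPM in frozen livers, and Gm23935 541.1 ± 119.8 and 213.8 ± 103.8 CPM. All 31-base words of Gm23935 occur in other genes, so its count is uncertain.

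Of 52 small nucleolar RNAs tested, 13 rose and 17 fell, shares near the 34.6% and 28.6% of all genes, with a median log2 fold change of -0.03, and 5 of the 17 fell by 2-fold or more (against 0.436% of all genes). Snord17, the long C/D snoRNA printed above, had 33.3, 78.5 and 140.2 CPM as its lowest, median and highest level in catalyst AllPrep livers, against 167.0, 200.7 and 251.7 CPM in frozen livers. Its log2 fold change was -1.49 (SE 0.15, adjusted p = 5.32e-09), and the groups were apart. Snora23 had 22.53, 35.98 and 49.79 CPM in catalyst AllPrep livers and 59.4, 90.5 and 126.2 CPM in frozen livers (log2 fold change -1.27, SE 0.116), also apart. Snora78 averaged 4.71 ± 1.82 CPM in catalyst AllPrep and 10.5 ± 3.4 CPM in frozen livers (log2 fold change -1.16), and Snora57 3.81 ± 1.40 and 7.62 ± 1.97 CPM (log2 fold change -1.01). Snord118, the U8 snoRNA needed to process large-subunit ribosomal RNA, averaged 6.70 ± 1.86 CPM in catalyst AllPrep and 11.7 ± 2.8 CPM in frozen livers (log2 fold change -0.79). These 3 overlapped between the states while falling in 12 of 12 animals. Gm26448, an unnamed snoRNA gene on chromosome 9 that was singled out after its values were seen, averaged 14.7 ± 5.3 CPM in catalyst AllPrep and 37.3 ± 6.5 CPM in frozen livers. Of 11 scaRNAs, which guide modification of spliceosomal RNAs, 7 rose and none fell.

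Of 7 tested Y, vault, 7SK, 7SL, RNase P and RNase MRP RNAs, 4 fell and none rose with a median of -0.25, and with library totals alone 3 fell and 2 rose. Among all genes 28.6% fell under TMM. Rny1, a Y RNA bound by the Ro60 protein, averaged 6.17 ± 3.01 CPM in catalyst AllPrep livers and 8.79 ± 2.95 CPM in frozen livers (log2 fold change -0.53), and Rny3 12.5 ± 3.7 and 17.7 ± 6.0 CPM (log2 fold change -0.50). Rmrp, the RNA of RNase MRP, averaged 899.2 ± 154.5 CPM in catalyst AllPrep and 1152.7 ± 120.0 CPM in frozen livers (log2 fold change -0.37), though its sequence also lies within a Ccdc107 transcript. Rn7sk, which holds the elongation factor P-TEFb inactive, averaged 5169.0 ± 722.2 and 5472.0 ± 514.5 CPM in catalyst AllPrep and frozen livers and did not pass (log2 fold change -0.09, adjusted p = 0.107), and with library totals alone its log2 fold change was 0.12. Among 21 snRNA genes tested, 14 rose and 3 fell (median 0.49), where 34.6% of all genes rose. The minor-spliceosome RNAs split. Rnu11 averaged 7.22 ± 1.93 CPM in catalyst AllPrep and 5.13 ± 1.26 CPM in frozen livers, and Rnu12 7.94 ± 2.56 and 12.5 ± 3.7 CPM. Both share most of their sequence with copies elsewhere, so their counts are uncertain. Abhd1, which GENCODE M21 lists as a processed transcript, averaged 13.2 ± 1.2 CPM in catalyst AllPrep and 23.1 ± 2.7 CPM in frozen livers, with 81.6% of its 31-base words in Preb.

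Genes for secreted proteins of the hepatocyte fell almost throughout. Of 70 plasma protein genes, 66 fell and 3 rose in catalyst AllPrep, where 28.6% of all genes fell. By 2-fold or more 6 fell (against 0.436% of all genes), and 23 fell without overlap (against 4.4%), with a median log2 fold change of -0.67. Hpx (chr7:105591613-105600137), the heme carrier hemopexin, had 1574.4, 4878.5 and 8680.9 CPM as its lowest, median and highest level in catalyst AllPrep livers, against 3505.5, 10570.4 and 20400.1 CPM in frozen livers. It fell in 12 of 12 animals (log2 fold change -1.19, SE 0.0425, adjusted p = 6.3e-17), though the states overlapped. The overlap came from the spread between animals: the same 4 animals, PB 18B, 18D and 20D and Con 21C, had the 4 lowest Hpx and Hp levels in both states. Hp, the haemoglobin carrier haptoglobin, had 978.2, 3420.0 and 5537.4 CPM in catalyst AllPrep and 2152.0, 7166.0 and 12913.6 CPM in frozen livers (log2 fold change -1.09). Apoe, an apolipoprotein, had 2786.7, 4615.7 and 6045.8 CPM in catalyst AllPrep livers and 7041.5, 9908.2 and 12827.9 CPM in frozen livers (log2 fold change -1.14, SE 0.0364, adjusted p = 1.68e-17). Apoa1, the main protein of high-density lipoprotein, averaged 3390.7 ± 485.4 and 6790.0 ± 704.7 CPM in catalyst AllPrep and frozen livers (log2 fold change -1.01), and neither apolipoprotein overlapped. Alb, serum albumin, averaged 28199.6 ± 8611.0 CPM in catalyst AllPrep and 46147.6 ± 12031.6 CPM in frozen livers (log2 fold change -0.73), and Ttr, the thyroxine carrier transthyretin, 2485.3 ± 656.8 and 4357.2 ± 908.6 CPM (log2 fold change -0.82). F9, coagulation factor IX, was the only tested member that did not pass, at 239.9 ± 29.1 CPM in catalyst AllPrep and 240.9 ± 14.4 CPM in frozen livers. With library totals alone, 59 of the 70 still fell.

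Major urinary proteins, lipocalins that carry pheromones and that male mouse liver secretes in bulk, differed among themselves. Of 21 genes 11 fell and 6 rose, where 28.6% and 34.6% of all genes did. The median of -0.20 turned to 0.01 with library totals alone (8 fell, 10 rose). Mup5 had 7.70, 11.0 and 15.2 CPM in catalyst AllPrep livers and 1.94, 2.89 and 5.35 CPM in frozen livers, the largest named rise among protein-coding genes (log2 fold change 1.81, SE 0.0792). Mup7 had 689.8, 951.5 and 1205.6 CPM in catalyst AllPrep livers and 1250.6, 1414.0 and 1865.4 CPM in frozen livers (log2 fold change -0.69). Neither gene overlapped between the states. Mup15 averaged 214.5 ± 81.8 and 335.3 ± 149.8 CPM in catalyst AllPrep and frozen livers (log2 fold change -0.60). Of their 31-base words, 37.0% in Mup5, 92.3% in Mup7 and all in Mup15 are shared with other genes, so reads of single Mup genes may not be told apart.

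Metabolic genes of the hepatocyte fell in most lists, where 28.6% of all genes fell. Of 22 periportal and urea cycle genes, 21 fell and 1 rose (median -0.43). Agt, angiotensinogen, had 122.2, 172.7 and 218.7 CPM in catalyst AllPrep livers and 286.1, 356.7 and 438.5 CPM in frozen livers (log2 fold change -1.07, SE 0.0359, adjusted p = 3.13e-17). Apof averaged 397.8 ± 31.8 CPM in catalyst AllPrep and 780.7 ± 71.4 CPM in frozen livers (log2 fold change -0.97), and Cps1, the entry enzyme of the urea cycle, 3941.0 ± 638.0 and 6301.3 ± 1017.4 CPM (log2 fold change -0.68). All 3 were apart. Ass1, argininosuccinate synthase, averaged 563.0 ± 166.7 and 1014.9 ± 277.8 CPM in catalyst AllPrep and frozen livers, with 61.5% of its 31-base words in the pseudogene Gm5424. Of 20 pericentral genes 13 fell and 4 rose (10 and 6 with library totals alone, against 15 and 2 of the 22 periportal genes), and whether the lists differ was not tested. Glul, glutamine synthetase, averaged 671.5 ± 163.2 CPM in catalyst AllPrep and 844.8 ± 160.4 CPM in frozen livers (log2 fold change -0.35). Cyp2e1, the ethanol-oxidising P450, averaged 3502.1 ± 488.9 and 5087.3 ± 801.0 CPM in catalyst AllPrep and frozen livers (log2 fold change -0.53). Of 33 fatty acid oxidation genes 29 fell and none rose (median -0.39), among them Acaa2, the last enzyme of the mitochondrial spiral, at 311.4 ± 54.7 CPM in catalyst AllPrep and 594.6 ± 92.6 CPM in frozen livers. Of 36 cholesterol and fatty acid synthesis genes 22 fell and 3 rose, a median of -0.18 that was 0.02 with library totals alone (9 fell, 14 rose).

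Housekeeping machines fell as well, against 28.6% of all genes. Of 32 proteasome subunit genes, 30 fell and none rose, 21 of them without overlap (against 4.4% of all genes), with a median of -0.56. Psmb5, the chymotrypsin-like catalytic subunit, had 5.96, 6.81 and 9.62 CPM in catalyst AllPrep and 11.6, 14.2 and 17.8 CPM in frozen livers (log2 fold change -0.99, SE 0.0614), with 74.0% of its 31-base words in pseudogenes and other genes. Psmb6 averaged 54.3 ± 3.4 CPM in catalyst AllPrep livers and 102.3 ± 7.4 CPM in frozen livers, and Psmc3 59.5 ± 4.2 and 106.4 ± 8.7 CPM. Of 39 endoplasmic reticulum chaperone and translocon genes 29 fell and 4 rose (median -0.37). Calr, the calcium-binding chaperone calreticulin, averaged 669.0 ± 72.1 CPM in catalyst AllPrep and 1276.4 ± 115.5 CPM in frozen livers (log2 fold change -0.93), and Hspa5, the chaperone BiP, 815.6 ± 157.7 and 1488.4 ± 275.1 CPM (log2 fold change -0.87). Of 77 cytosolic ribosomal protein genes 52 fell and 4 rose, none without overlap; the median of -0.25 became -0.04 with library totals alone, where 25 fell and 22 rose. Rpl18 averaged 49.99 ± 8.53 CPM in catalyst AllPrep and 77.2 ± 5.3 CPM in frozen livers (log2 fold change -0.64), while Rps2, at 188.2 ± 30.9 and 196.0 ± 14.7 CPM, did not pass. Of 39 translation factors 23 fell and 9 rose, with a median of -0.12 that was 0.08 with library totals alone (12 fell, 19 rose). Eif3d, a subunit of initiation factor eIF3, averaged 42.2 ± 2.8 CPM in catalyst AllPrep and 72.3 ± 4.5 CPM in frozen livers.

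Replication-dependent histone mRNAs end in a stem-loop in place of a poly(A) tail, and 28 of 63 such genes passed the filter. Of these 23 fell, 2 rose and 3 did not pass, where 28.6% of all genes fell. In 16 the fall was 2-fold or more, against 0.436% of all genes, and the median log2 fold change was -1.03. Hist1h1e, a linker histone, had 20.3, 22.7 and 30.8 CPM in catalyst AllPrep livers and 43.3, 49.2 and 71.0 CPM in frozen livers (log2 fold change -1.09, SE 0.038, adjusted p = 4.02e-17). The core histone genes Hist1h4h, at 9.13 ± 2.00 CPM in catalyst AllPrep and 19.7 ± 3.6 CPM in frozen livers, and Hist4h4, at 3.21 ± 0.67 and 6.89 ± 1.46 CPM, likewise did not overlap. With library totals alone 21 of the 28 fell and 3 rose. Histone genes are near copies of each other, and 34.7% of the 31-base words of Hist1h1e are shared, while Hist1h4h has 44.8% in common with Hist1h4j.

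Genes often used as references for liver RNA fell in the main, against 28.6% of all genes. Of 22 such genes, 17 fell and 2 rose, with a median of -0.28, and with library totals alone 8 fell and 5 rose. Gapdh, a glycolytic enzyme, had 88.1, 119.4 and 147.0 CPM as its lowest, median and highest level in catalyst AllPrep livers, against 187.2, 232.4 and 255.7 CPM in frozen livers. The groups were apart (log2 fold change -0.96, SE 0.0381, adjusted p = 2.79e-16). Actb, beta-actin, averaged 854.2 ± 62.5 CPM in catalyst AllPrep livers and 1323.0 ± 109.6 CPM in frozen livers (log2 fold change -0.63), and B2m, the light chain of MHC class I, 1014.1 ± 84.3 and 1352.7 ± 109.8 CPM (log2 fold change -0.42). Ppia, cyclophilin A, averaged 64.9 ± 3.4 CPM in catalyst AllPrep and 103.5 ± 6.3 CPM in frozen livers, and Pgk1, of glycolysis, 40.7 ± 6.6 and 63.7 ± 7.2 CPM. Rplp0, of the ribosomal stalk, averaged 220.8 ± 52.8 and 257.0 ± 34.0 CPM in catalyst AllPrep and frozen livers (log2 fold change -0.24, adjusted p = 0.00117), and its fall did not pass without the animal in the model (-0.21) or with library totals alone (-0.03). Hprt, a purine salvage enzyme, averaged 36.1 ± 4.3 and 40.1 ± 6.7 CPM in catalyst AllPrep and frozen livers (log2 fold change -0.15, adjusted p = 0.0274), and was 0.06 with library totals alone. Its fall also did not pass without animal 18B (-0.13), 18D (-0.13), 20D (-0.10) or 80B (-0.13), or without the animal in the model (-0.14). Tbp, the TATA-binding protein, rose, at 23.3 ± 3.1 CPM in catalyst AllPrep and 17.0 ± 1.5 CPM in frozen livers (log2 fold change 0.45).

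**Figure D3:**
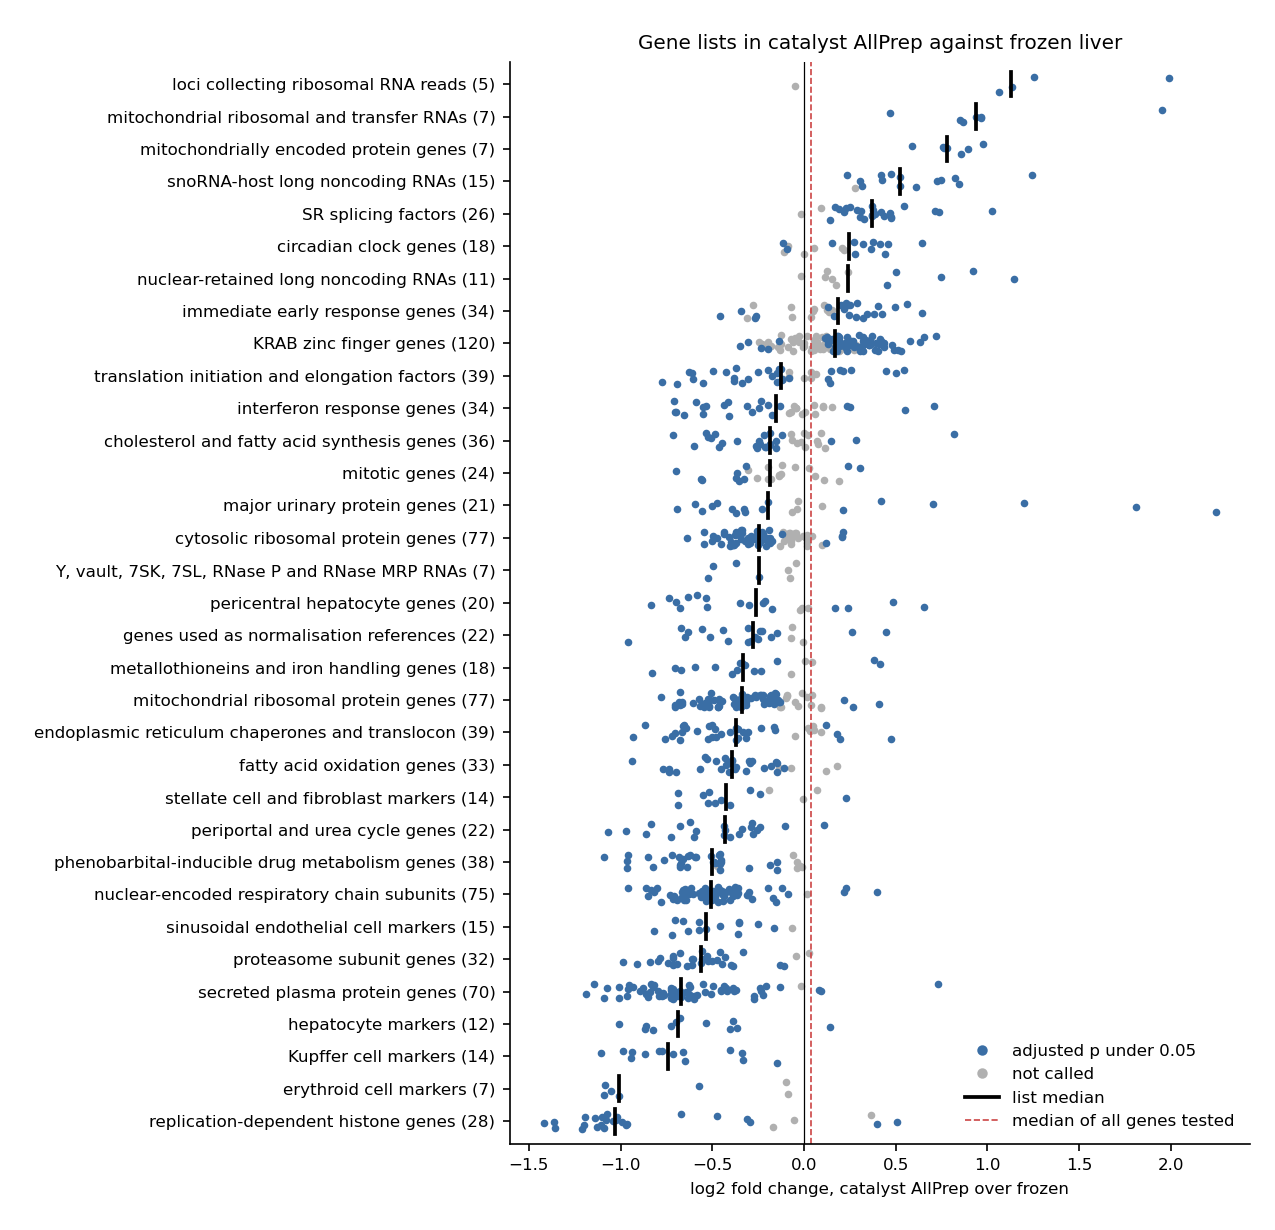
Log2 fold change, catalyst AllPrep over frozen, of the tested members of every list with 5 or more tested members (number in brackets), lists ordered by their median (black bar). Blue points passed at an adjusted p under 0.05, grey points did not, and the dashed line is the median of all genes tested, 0.04; loci collecting ribosomal RNA reads stand at one end and replication-dependent histone genes, at -1.03, at the other.

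Immediate early genes give short-lived mRNAs, and clock genes cycle with time of day. Of 34 immediate early response genes 19 rose, 4 fell and 11 did not pass (median 0.18), and of 18 clock genes 10 rose, 2 fell and 6 did not pass (median 0.24), where 34.6% of all genes rose. Egr1, a growth-induced transcription factor, had 2.06, 6.22 and 70.6 CPM in catalyst AllPrep livers and 0.934, 4.98 and 36.4 CPM in frozen livers, and rose in 12 of 12 animals (log2 fold change 0.64) across that wide spread, but its rise did not pass without the animal in the model. Cebpb, a liver transcription factor, averaged 28.5 ± 8.2 CPM in catalyst AllPrep and 19.4 ± 5.5 CPM in frozen livers (log2 fold change 0.56). Zfp36, which destabilises AU-rich mRNAs, averaged 43.9 ± 14.7 and 30.9 ± 9.4 CPM in catalyst AllPrep and frozen livers (log2 fold change 0.50). Among clock genes, Hlf averaged 65.1 ± 14.4 CPM in catalyst AllPrep and 41.6 ± 8.5 CPM in frozen livers (log2 fold change 0.64), and Per2 21.4 ± 5.0 and 15.6 ± 3.8 CPM (log2 fold change 0.46). Interferon response genes gave 18 falls and 4 rises of 34 (median -0.15), but 12 falls and 11 rises with library totals alone (median 0.05). Mitotic genes gave 8 falls and 2 rises of 24 (median -0.19), near the 28.6% of all genes that fell, but 3 falls and 6 rises with library totals alone (median 0.04). Metallothioneins and iron handling genes gave 13 falls and 2 rises of 18.

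The cell type markers matched the label of liver: the 12 hepatocyte markers summed to 32702.7 to 67350.7 CPM in catalyst AllPrep and 54965.3 to 101325.6 CPM in frozen libraries, while 7 pancreatic acinar markers summed to 17.5 to 43.8 and 17.8 to 40.7 CPM and 7 adipocyte markers to 2.72 to 6.62 and 3.25 to 10.3 CPM. The acinar genes Prss2, Amy2a5, Cpa1 and Ctrb1 and the fat cell genes Plin1 and Lep were listed at 0 in all 24 libraries. Markers of the main liver cell types fell in catalyst AllPrep, where 28.6% of all genes fell. In bulk tissue, fewer cells of a type and less RNA per cell cannot be told apart, and the part of either in these differences was not tested. Of 12 hepatocyte markers 11 fell and 1 rose (median -0.69). All 14 Kupffer cell markers fell (median -0.74), and their sum ran from 302.4 to 806.7 CPM in catalyst AllPrep and 554.9 to 1280.9 CPM in frozen livers. C1qa, a chain of the first complement component, had 12.05, 23.43 and 35.04 CPM in catalyst AllPrep livers and 33.9, 47.3 and 85.7 CPM in frozen livers (log2 fold change -1.11, SE 0.0553, adjusted p = 1.31e-14). Its partner chains C1qb and C1qc averaged 21.8 ± 7.2 and 22.6 ± 6.7 CPM in catalyst AllPrep livers, against 42.9 ± 11.7 and 43.3 ± 11.8 CPM in frozen livers. Fcna, the lectin ficolin A of liver macrophages, had 14.03, 18.44 and 23.47 CPM in catalyst AllPrep livers and 31.2, 42.2 and 54.6 CPM in frozen livers, without overlap (log2 fold change -1.12).

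Of 15 sinusoidal endothelial markers 14 fell and none rose (median -0.53), where 28.6% of all genes fell. Their sums were 469.0 to 851.2 CPM in catalyst AllPrep and 817.9 to 1075.9 CPM in frozen livers. Oit3 averaged 20.8 ± 4.5 CPM in catalyst AllPrep and 36.6 ± 6.5 CPM in frozen livers, Clec4g, a sinusoidal lectin, 30.1 ± 6.0 and 49.4 ± 6.2 CPM, and Stab1, a scavenger receptor, 72.5 ± 17.8 and 116.0 ± 9.9 CPM. Of 14 stellate cell and fibroblast markers 10 fell and 1 rose (median -0.43). Dcn, the proteoglycan decorin, averaged 88.0 ± 15.5 CPM in catalyst AllPrep and 140.4 ± 14.2 CPM in frozen livers without overlap, and Col3a1, a fibrillar collagen, 60.1 ± 24.5 and 96.0 ± 36.6 CPM. Of 7 erythroid markers 5 fell, 4 of them by 2-fold or more (against 0.436% of all genes). Their sums were 158.8 to 265.9 CPM in catalyst AllPrep and 244.8 to 511.9 CPM in frozen livers. The globin genes Hbb-bs, at 66.08 ± 20.96 CPM in catalyst AllPrep and 137.1 ± 39.0 CPM in frozen livers, and Hba-a1, at 15.9 ± 5.4 and 32.0 ± 9.2 CPM, share 66.9% and 71.4% of their 31-base words with other globin genes, and Hbb-bt, at 5.71 ± 2.15 and 12.01 ± 3.31 CPM, shares 59.4%. Of 4 tested cholangiocyte markers 2 rose and 1 fell, of 3 neutrophil markers 2 fell, and the 1 tested lymphocyte marker and the 1 tested acinar marker did not pass while the 1 tested adipocyte marker fell.

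PB and Con animals stood apart in both states at genes that phenobarbital induces. Cyp2b10 had 946.9, 1306.6 and 1923.9 CPM as its lowest, median and highest level in catalyst AllPrep livers of PB animals, and 1711.1, 2147.4 and 2641.4 CPM in frozen livers of PB animals. In Con animals it stayed at 0.0909 to 0.425 CPM in catalyst AllPrep and 0.0659 to 0.359 CPM in frozen livers, a handful of reads, so no fold is given there. Every PB library thus lay far above every Con library in either state. Cyp3a11 had 3287.8 to 7695.5 CPM in catalyst AllPrep and 5635.4 to 12193.6 CPM in frozen livers of PB animals, and 21.7 to 208.3 CPM and 31.3 to 267.3 CPM in those of Con animals. Of 38 phenobarbital-inducible drug metabolism genes, 32 fell in catalyst AllPrep and none rose, where 28.6% of all genes fell. Their median log2 fold change was -0.61 in PB animals and -0.41 in Con animals. Ces2c, a carboxylesterase, averaged 17.3 ± 12.3 CPM in catalyst AllPrep and 37.6 ± 27.9 CPM in frozen livers (log2 fold change -1.09, SE 0.0553), and Ces2a 379.1 ± 342.1 and 749.4 ± 678.9 CPM (log2 fold change -0.97). Gsta4, a glutathione transferase, averaged 18.05 ± 6.196 and 36.02 ± 16.04 CPM in catalyst AllPrep and frozen livers (log2 fold change -0.96). The test of the difference itself, whether the change between states differed between PB and Con animals, called 0 of 13997 genes (0.0%) in edgeR at a smallest adjusted p of 0.354. At an unadjusted p under 0.05 it gave 1576 of the 13997 genes. That is more than this threshold gives on average when no gene differs. After adjustment DESeq2 called 87 and limma voom 0.

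The shares of genes that rose and fell differed by gene length, GC content and level. Of 110 genes with under 200 exonic bases, 50.9% rose and 18.2% fell, and of 2321 genes with 8000 bases or more, 48.9% rose and 15.7% fell. Between them, of 1644 genes from 1000 up to 2000 bases, 23.0% rose and 44.6% fell. By GC content, genes with 27.5% to 43.1% GC had 50.1% rising and 14.4% falling, genes with 50.7% to 54.8% GC 24.7% and 39.5%, and genes with 54.8% to 75.5% GC 29.0% and 34.9%. Among nuclear protein-coding genes split into 5 equal groups, the group with the highest frozen level per length (CPM per kb) had 19.3% rising and 62.5% falling, with a median log2 fold change of -0.21 that was -0.00266 with library totals alone. The lowest group had 21.9% rising and 10.8% falling. These groups were formed on the frozen values that also enter each fold change, so level and change are not independent here. The part of length, GC content and level in the falls of the lists described above was not tested. Eno1b, a fall of 1.17 on the log2 scale, shares 80.9% of its 31-base words with Eno1 and cannot be told from it.

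**Figure D4:**
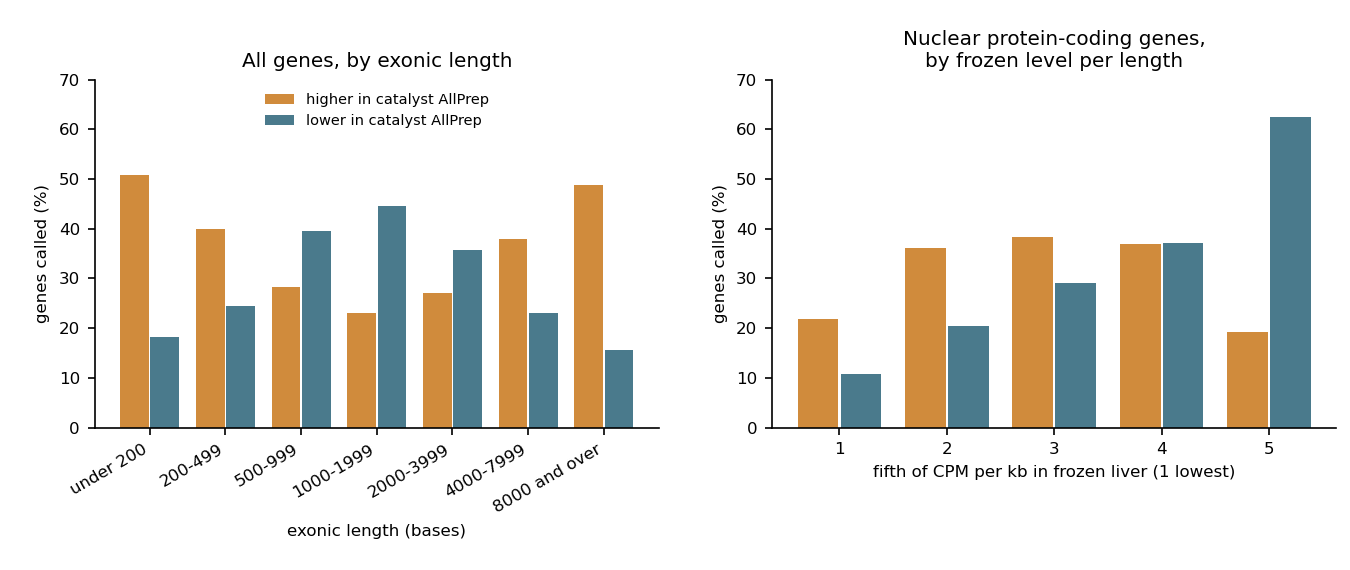
Percent of genes called higher (orange) or lower (blue) in catalyst AllPrep than in frozen liver, by exonic length in bases for all genes (left) and by 5 equal groups of the frozen level in CPM per kb for nuclear protein-coding genes (right). The lower bar peaks at 44.6% for genes from 1000 up to 2000 bases and at 62.5% in the most abundant group. The frozen level that forms the groups on the right also enters the fold change.

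To place the comparison with frozen liver, the catalyst AllPrep libraries were also set against other fixed liver pieces of the same animals that met no catalyst: 12 libraries isolated after 3 months in formalin with no demodifying incubation, and 12 isolated with AllPrep after the same 18 hours at 55 °C in the absence of the catalyst. The isolation kit of the untreated state is not given in the part of the protocols used here, and catalyst AllPrep libraries are shared by all 3 comparisons, so their values are given side by side. Against untreated 3-month formalin 7766 of 13433 genes (57.8%) were called, 3972 higher (29.6%) and 3794 lower (28.2%) in catalyst AllPrep, and 420 differed by 2-fold or more (3.13%). Against heat only 1930 of 13807 genes (14.0%) were called, 1116 higher (8.08%) and 814 lower (5.9%), of which 4 (0.029%) were higher and 4 (0.029%) lower by 2-fold or more, 8 in all (0.0579%). The heat-only count was 1273 without animal 18D, 1238 without animal 75C and 123 without the animal in the model.

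Short RNAs set the untreated formalin libraries apart. Of 49 snoRNA genes tested in both comparisons, 43 were lower and 2 higher in catalyst AllPrep than in untreated formalin (median log2 fold change -2.86), against 17 falls and 13 rises of 52 relative to frozen liver. Of 11 scaRNAs 10 were lower (median -1.55), and of 7 mitochondrial transfer RNAs all 7 (median -1.70). Among all genes in this comparison 28.2% were lower and 29.6% higher. Rny1 averaged 6.26 ± 3.05 CPM in catalyst AllPrep and 161.5 ± 117.0 CPM in untreated formalin livers (log2 fold change -4.51, SE 0.188, adjusted p = 5.5e-16), and Rny3 12.7 ± 3.7 and 321.9 ± 252.0 CPM (log2 fold change -4.41). Snord16a averaged 13.5 ± 14.7 CPM in untreated formalin livers. In catalyst AllPrep it stayed at 0.162 to 0.969 CPM, a handful of reads near the filter on low counts, so no fold is given. For Rny1 and Rny3, the lowest untreated library lay above the highest catalyst one. The 7 mitochondrially encoded protein genes were lower in catalyst AllPrep than in untreated formalin (median -1.31) and higher than in frozen liver (0.78). The largest named rises over untreated formalin were Hsd3b7, of bile acid synthesis, at 10.5 ± 1.9 CPM in catalyst AllPrep and 2.84 ± 0.92 CPM in untreated formalin livers (log2 fold change 1.92), and Tymp, thymidine phosphorylase, at 59.0 ± 12.3 and 17.8 ± 8.9 CPM (log2 fold change 1.75). The pseudogene Cyp2d37-ps averaged 97.7 ± 27.0 CPM in catalyst AllPrep and 31.2 ± 12.9 CPM in untreated formalin livers.

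Classes were counted over the 13704 genes also tested against frozen liver, of which 11955 were protein-coding. Against heat only, 1078 of the 1116 such genes that were higher in catalyst AllPrep were protein-coding. So were 613 of the 806 that were lower, and 85 of 590 TEC loci were lower. The 3 largest named falls were mitochondrial. mt-Nd5 averaged 4976.2 ± 851.0 CPM in catalyst AllPrep livers and 9571.1 ± 4775.5 CPM in heat-only livers (log2 fold change -0.82, SE 0.13, adjusted p = 0.000806), mt-Nd2 3628.4 ± 479.0 and 6866.6 ± 3387.6 CPM, and mt-Tm 10.4 ± 0.89 and 21.3 ± 9.6 CPM. All 7 mitochondrially encoded protein genes and 6 of 7 mitochondrial transfer RNAs were lower in catalyst AllPrep than in heat only. Among all genes in this comparison 5.9% were lower and 8.08% higher. Of the 75 nuclear-encoded respiratory chain genes 42 were higher and none lower (median 0.16), and of 70 plasma protein genes 39 were higher and 2 lower (median 0.16). Of 50 snoRNA genes 9 were higher and none lower, with a median of 0.01, and of 20 snRNA genes 9 were lower. Mup5 averaged 11.8 ± 2.5 CPM in catalyst AllPrep and 8.05 ± 2.29 CPM in heat-only livers (log2 fold change 0.56), Scp2-ps2, a pseudogene of a sterol carrier gene, 17.6 ± 3.0 and 12.8 ± 3.0 CPM, and Mup7 1019.4 ± 194.0 and 756.1 ± 171.0 CPM.

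**Figure D5:**
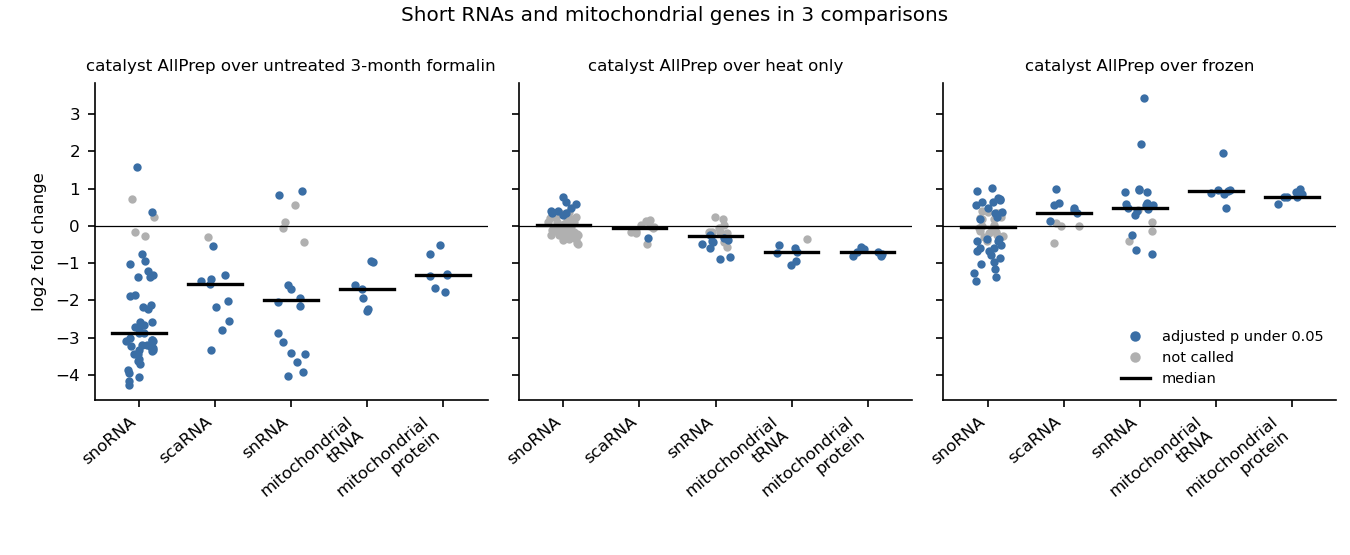
Log2 fold change of catalyst AllPrep over untreated 3-month formalin (left), over heat only (middle) and over frozen liver (right) for snoRNAs, scaRNAs, snRNAs, mitochondrial transfer RNAs and mitochondrially encoded protein genes. Each point is a gene (blue passed at an adjusted p under 0.05, grey did not) and black bars are medians, which for snoRNAs are -2.86, 0.01 and -0.03 in that order.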

How the data were processed

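The authors deposited a table of whole-number read counts per gene and a table of log2 CPM (counts scaled to 1e6 per library). The submitters' processing notes name GRCm38 and mm10 among builds and STAR 2.5, CASAVA and edgeR among tools. Which annotation was counted, and whether by strand, is not stated there or in the labels. Of the counts, at most 0.049% of a library lay on rows with no gene of the annotation, and the 92 spike-in rows held 7 counts in all 24 libraries. The spike-in rows stayed out of library sizes and tests. Rows with no gene of the annotation were kept, and 48 of the 13997 genes tested were such rows. No libraries were identical.

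Counts were filtered with filterByExpr (minimum count 10), scaled by TMM and fitted in edgeR 4.0.16 (R 4.3.3) with the animal as a block, and quasi-likelihood p-values were adjusted by Benjamini-Hochberg over all genes tested. The procedure was checked on simulated data. The block rests on the animal code in the labels: over 10041 genes, libraries of the same animal had deviations from their state's mean that correlated at 0.632 to 0.841, against a median of -0.0556 between animals, and 12 of 12 animals correlated best with their own library. CPM are TMM-scaled. Library shares were compared with an exact paired permutation test (scipy 1.17.1). Symbols, classes, lengths and GC content came from GENCODE M21, and the share of 31-base words that a gene's transcripts have in common with other genes from its transcript sequences.

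Genes were named as follows: the 10 protein-coding and 6 other genes with the largest rises and falls that were called, averaged at least 5 CPM, moved one way in 12 of 12 animals and had a symbol of their own; 18 fixed liver, reference and noncoding genes; for each list described, up to 3 called members of the largest change and the most abundant member not called; and the 3 largest rises and falls in the comparisons with the other fixed states. A gene that this rule names is not reported here. The libraries described, the 39 lists (1204 entries, 16 not found) and this rule were chosen with earlier results of these data known. Alternatives were the model without the block, DESeq2 1.42.0, limma 3.58.1 voom, no filter, other scalings, thinning to the shallowest library, offsets for length and GC content, each animal left out, and, chosen after seeing the data, limma on the deposited log2 values.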

Additional observations from a re-analysis of the deposited data

Results flagged for a closer look

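In 508 groups of 6 libraries examined (a measure or gene, a state and a treatment), 32 had a library set apart from the other 5 by Dixon's test, where chance gives about 5%. Animal PB 20D stood high in catalyst AllPrep for Lars2 (105.0 CPM), Rsrp1 (330.2 CPM), Mbd6 (30.7 CPM), Hist1h1e (30.8 CPM), Gm42418 (1996.1 CPM) and Zfp36 (62.8 CPM). In frozen liver the same animal stood high for the share of miRNA loci (0.0716%), Egr1 (20.0 CPM) and Gm23935 (529.9 CPM).

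Animal PB 75C stood low in catalyst AllPrep for the share of miRNA loci (0.0746%), Hist4h4 (1.74 CPM) and Gm23935 (319.5 CPM). In frozen liver it stood high for Lars2 (48.8 CPM) and low for Ndufs8 (48.1 CPM) and Rps2 (176.7 CPM). Animal PB 80B stood high in catalyst AllPrep for Rny1 (14.5 CPM) and Rny3 (22.1 CPM), and PB 20B low for Per2 (11.1 CPM).

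Animal Con 21C stood high for Cyp2e1 in both states, at 4764.1 CPM in catalyst AllPrep and 6104.8 CPM in frozen liver. In catalyst AllPrep it was also high for Acaa2 (432.5 CPM) and low for the share of plasma protein genes (18.1%), and in frozen liver high for Zfas1 (5.91 CPM) and low for F9 (222.1 CPM) and Apof (663.0 CPM). Animal Con 90C stood high for Egr1 in both states, at 70.6 CPM in catalyst AllPrep and 36.4 CPM in frozen liver. Animal Con 8A stood low for Rny3 (6.46 CPM) in catalyst AllPrep and high for Mbd6 (19.0 CPM) and Gm24514 (3.86 CPM) in frozen liver. The frozen library of Con 8C had 16456535 counts and was low for Snord17 (202.3 CPM).

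The spike-in rows, which the comparisons do not use, held 6 counts in the catalyst AllPrep library of Con 82B, more than in any of the other libraries.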

How the results depend on the processing

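Across 23 settings, 100 of 113 named genes kept their direction and their call against frozen liver in every setting that gave them a value. With library totals alone, 8220 genes rose and 1964 fell in catalyst AllPrep, against 4840 and 4009 with TMM, and 302 genes differed by 2-fold or more, against 148. Without a filter that count was 422. The interaction of state and phenobarbital gave 87 genes in DESeq2 and 78 without a filter, against 0. Against untreated 3-month formalin, thinning to the shallowest library left 4537 genes, against 7766. Leaving out 1 animal at a time gave 1238 to 1953 genes against heat only. Without the replicate block 123 genes were called against heat only, and 3893 rose and 3160 fell against frozen liver; Cyp3a11, Hprt, Rplp0, Gm37376 and Egr1 lost their calls, and no other named gene did. Signs turned with library totals alone for Hprt (0.0606), Rps2 (0.137), Rn7sk (0.119), Gm26917 (0.161) and F9 (0.194), with a length offset in the block model for Hprt (0.0122), Rps2 (0.065) and F9 (0.0509), and with a GC offset for mt-Ti (-0.168) and Rps2 (0.00881). Gm26917 also turned without the block (0.165) and with voom (0.0462), and ran from -0.135 to 0.136 with 1 animal left out. F9 turned with TMM from nuclear protein-coding genes (0.00798) and ran from -0.0456 to 0.00911 with 1 animal left out. The cause of these changes was not tested.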
